A study of Mus musculus with 6 samples.

Results

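The genes that make glucose and store glycogen in the liver were followed here in mouse pups at postnatal day 10. They are Pcx, Pck1, Fbp1 and G6pc of gluconeogenesis, Ugp2, Gys2, Gbe1 and Pygl of glycogen turnover, the glucose transporter Slc2a2 and the glucagon receptor Gcgr. Each was found in the deposited table by its symbol, giving 10 genes of 24489 gene entries, and all 10 passed the filter on low counts with 13819 genes tested in all. The series compared whole liver lobes of untreated Jag1+/+ and Jag1Ndr/Ndr pups on a C3H/C57bl6J background, with 3 libraries of polyadenylated RNA per genotype. Jag1 encodes a ligand of Notch receptors, and the Ndr (Nodder) allele carries a missense change in it. Homozygous pups are a model of Alagille syndrome, a disease of too few bile ducts and of cholestasis. A missense allele need not alter its own transcript level, so the reads of Jag1 do not check the genotype labels.

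Gluconeogenesis builds glucose from pyruvate, lactate, glycerol and amino acids, mostly in periportal hepatocytes. It bypasses the irreversible steps of glycolysis with pyruvate carboxylase, phosphoenolpyruvate carboxykinase, fructose bisphosphatase and glucose-6-phosphatase. Glycogen is the stored form of glucose, built by glycogen synthase and branching enzyme and broken down by glycogen phosphorylase. Glucagon and adrenaline favour glucose release, glucocorticoids favour gluconeogenesis and insulin favours storage. A suckling pup, whose milk diet is rich in fat, relies on gluconeogenesis.

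Libraries held between 12992592 and 59653111 reads over gene entries, and the 10 genes had between 314 (Gbe1) and 68593 (Pck1) reads in a library. Levels are RPKM, reads scaled to gene length and library size, computed from the read counts with the scaling of the test, so they can be set side by side between genes. Whether the 3 libraries of a genotype came from 3 different pups is not stated, so p-values measure the spread between these libraries, which may be partly technical. Sex, read from Xist, was uneven: Jag1+/+ replicate 1 and Jag1Ndr/Ndr replicates 2 and 3 held 7252 to 32884 Xist reads and the other 3 libraries at most 29. Each genotype thus held both sexes, so its libraries did not all come from the same pup. Defining hepatocyte markers (Alb, Ttr, Apoa1, Apob, Tf, Fgb and Ahsg) were abundant throughout, with a summed level of 180880 to 189620 RPKM in Jag1+/+ and 107450 to 199080 RPKM in Jag1Ndr/Ndr livers. Of these 7 markers Ttr fell (edgeR adjusted p = 0.0238, lost in 5 of 17 alternatives) and the other 6 did not pass. Fewer cells of a type and less RNA per cell cannot be told apart in whole tissue.

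None of the 10 genes passed the test between genotypes, and they lay on both sides of 0. With edgeR (quasi-likelihood test, Benjamini-Hochberg adjustment), 0 of 10 genes rose and 0 fell, beside 4.73% of all genes tested that rose, 2.90% that fell and 7.63% called in either direction. The adjusted p lay between 0.158 (Pygl) and 0.959 (Gcgr), and 1 of the 10, Pygl, had an unadjusted p under 0.05, as did 22.5% of all genes tested. DESeq2 and limma on the deposited RPKM also called 0. The log2 fold changes, Jag1Ndr/Ndr over Jag1+/+, ranged from -0.53 to 0.49 with a median of -0.04, beside a median of 0.0041 over all genes tested. They were positive for 5 genes and negative for 5. In simulated counts for 13819 genes the test found 26 of 100 planted 2-fold changes and 84 of 100 planted 4-fold changes, so a count of 0 does not show that the genes are unchanged. The planted genes were drawn at random from all genes tested, with the same spread in both genotypes, so these shares need not hold for the 10 genes. The 95% intervals given below, which are not adjusted for the number of genes, bound each change.

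**Figure D1:**
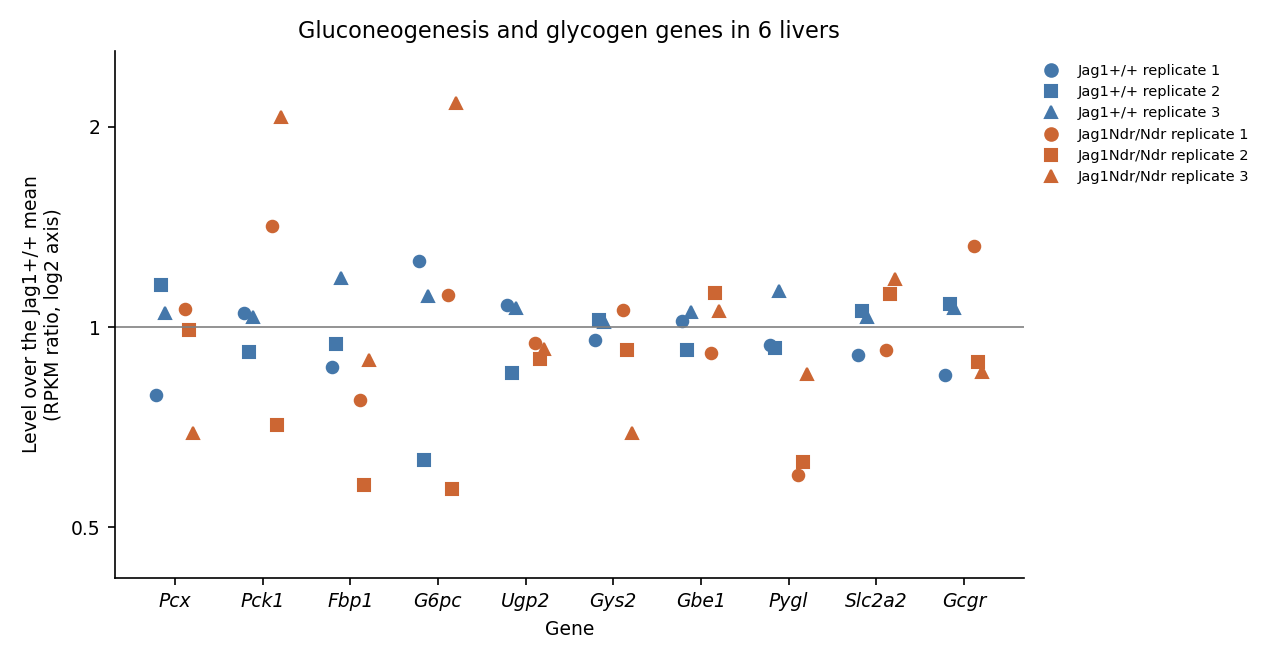
Level of each of the 10 genes in each library, as RPKM divided by the mean of the 3 Jag1+/+ libraries (log2 axis; circles, squares and triangles are replicates 1, 2 and 3; the grey line is the Jag1+/+ mean). Jag1Ndr/Ndr replicate 3 stands highest for Pck1 and G6pc and replicate 2 lowest for Pck1, Fbp1 and G6pc, while the genotypes overlap for every gene but Pygl.

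Gluconeogenesis starts in mitochondria with pyruvate carboxylase, which makes oxaloacetate. Its gene Pcx lies at chr19:4510472-4621752 (GRCm38, as for the genes that follow). Pcx measured 140.2, 205.0 and 186 RPKM in Jag1+/+ replicates 1, 2 and 3 and 188, 175 and 123 RPKM in Jag1Ndr/Ndr replicates 1, 2 and 3. The genotypes overlapped, with the lowest value in Jag1Ndr/Ndr replicate 3. The log2 fold change was -0.13 ± 0.23 (SE; 95% interval -0.66 to 0.41, edgeR adjusted p = 0.809), and it turned to 0.11 in the deposited RPKM.

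Pck1 (chr2:173153073-173159274), the cytosolic carboxykinase that turns oxaloacetate into phosphoenolpyruvate and commits it to glucose, stood at 555, 486 and 548 RPKM in the Jag1+/+ libraries. In Jag1Ndr/Ndr replicates 1, 2 and 3 it stood at 751, 378 and 1096 RPKM. The Jag1+/+ libraries thus lay close together, with 2 Jag1Ndr/Ndr libraries above all of them and replicate 2 below. The log2 fold change of 0.49 ± 0.35 (95% interval -0.31 to 1.28) did not pass (edgeR adjusted p = 0.477). It was 0.80 without Jag1Ndr/Ndr replicate 2 (edgeR adjusted p = 0.0586) and 0.10 without Jag1Ndr/Ndr replicate 3.

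Fbp1 (chr13:62864753-62888298), the fructose bisphosphatase of liver and kidney, measured 744, 805 and 1014 RPKM in Jag1+/+ and 664, 494 and 763 RPKM in Jag1Ndr/Ndr livers. Only Jag1Ndr/Ndr replicate 3 reached into the Jag1+/+ range. Its change on the log2 scale was -0.42 ± 0.23 (95% interval -0.94 to 0.11, edgeR adjusted p = 0.333).

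G6pc (chr11:101367716-101377903), the catalytic subunit of glucose-6-phosphatase, releases free glucose at the end of both gluconeogenesis and glycogen breakdown. Its level was 189, 95.02 and 167 RPKM in Jag1+/+ and 168, 85.8 and 326 RPKM in Jag1Ndr/Ndr replicates 1, 2 and 3. Replicate 2 was the lowest library of either genotype and Jag1Ndr/Ndr replicate 3 the highest of all 6. The log2 fold change of 0.36 ± 0.46 (95% interval -0.68 to 1.41, edgeR adjusted p = 0.713) had the widest interval of the 10 genes. It turned to -0.24 without Jag1Ndr/Ndr replicate 3, was 0.72 without Jag1Ndr/Ndr replicate 2 and 0.11 without Jag1+/+ replicate 2.

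Promoter sequences are shown for Pck1, G6pc and Fbp1, whose levels took the same order over the Jag1Ndr/Ndr libraries, and for Pygl, the only gene of the 10 whose genotypes did not overlap. Each runs from 250 bases before the RefSeq start site to 50 bases from it on, 5′ to 3′ (RefSeq, GRCm38.p6). The windows are chr2:173152823-173153122 on the plus strand for Pck1, chr11:101367466-101367765 on the plus strand for G6pc, chr13:62888233-62888532 on the minus strand for Fbp1 and chr12:70227634-70227933 on the minus strand for Pygl. Capitals mark matches, on either strand, to the motifs searched.
Pck1 promoter: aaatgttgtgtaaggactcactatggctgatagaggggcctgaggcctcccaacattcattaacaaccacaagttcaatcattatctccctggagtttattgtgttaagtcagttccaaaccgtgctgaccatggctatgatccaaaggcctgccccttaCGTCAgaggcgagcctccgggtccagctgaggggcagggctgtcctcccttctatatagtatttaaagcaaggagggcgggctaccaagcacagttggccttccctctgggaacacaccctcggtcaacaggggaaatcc
G6pc promoter: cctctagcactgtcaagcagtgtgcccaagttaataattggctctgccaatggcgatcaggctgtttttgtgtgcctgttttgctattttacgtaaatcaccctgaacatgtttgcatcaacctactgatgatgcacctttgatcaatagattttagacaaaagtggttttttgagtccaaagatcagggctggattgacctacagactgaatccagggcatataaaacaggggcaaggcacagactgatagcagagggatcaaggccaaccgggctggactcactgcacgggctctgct
Fbp1 promoter: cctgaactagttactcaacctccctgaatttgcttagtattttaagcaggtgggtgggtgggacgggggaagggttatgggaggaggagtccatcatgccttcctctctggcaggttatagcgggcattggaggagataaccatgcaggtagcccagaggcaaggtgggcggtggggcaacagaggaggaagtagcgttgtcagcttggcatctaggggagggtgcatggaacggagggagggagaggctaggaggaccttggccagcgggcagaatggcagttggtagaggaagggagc
Pygl promoter: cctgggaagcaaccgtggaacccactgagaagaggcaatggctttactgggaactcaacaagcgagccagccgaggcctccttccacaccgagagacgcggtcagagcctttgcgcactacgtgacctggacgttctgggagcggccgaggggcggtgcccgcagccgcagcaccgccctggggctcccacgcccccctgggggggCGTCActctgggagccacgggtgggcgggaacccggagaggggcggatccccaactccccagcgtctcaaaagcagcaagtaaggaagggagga

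The motifs were the cAMP response element TGACGTCA, its core TGACG, the forkhead motif TGTTTAC, the glucocorticoid receptor core TGTTCT and the C/EBP motif TTGCNNAA, each on both strands. They belong to factors through which glucagon, insulin and glucocorticoids are known to act on gluconeogenic genes. Windows were given for 9 of the 10 genes, with Gys2 not matched. The core TGACG lay on the reverse strand of the Pck1 window, 90 to 86 bases before the start site, and of the Pygl window, 44 to 40 bases before it. It was found in no other window of the 9 genes, beside 20.8% of 32851 promoter windows of the same length. The longer element TGACGTCA, which contains the core, was in 0 of the 9 genes' windows and in 1.79% of all windows. The C/EBP motif was in a window of Ugp2 alone (10.8% of all windows), and the forkhead and glucocorticoid receptor motifs in none (3.65% and 19% of all windows). The printed G6pc and Fbp1 windows thus hold none of these exact letters. A match describes the letters only.

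Glycogen synthesis draws on UDP-glucose, made by Ugp2 (chr11:21321126-21371267). Ugp2 measured 94.8, 74.9 and 94.0 RPKM in Jag1+/+ and 83.2, 78.7 and 81.5 RPKM in Jag1Ndr/Ndr livers, all 3 of the latter within the Jag1+/+ range. Between genotypes the log2 fold change was -0.12 ± 0.17 (95% interval -0.49 to 0.26, edgeR adjusted p = 0.747), and limma on the deposited RPKM (pseudocount 1) gave 0.14. Its exons overlap the gene Gm12043 on the other strand, and reads of the pair cannot be told apart without strand.

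Gys2 (chr6:142422612-142473130), the glycogen synthase of liver, was the steadiest of the 10 in Jag1+/+ livers, at 54.6, 58.5 and 58.0 RPKM. In Jag1Ndr/Ndr replicates 1, 2 and 3 it stood at 60.6, 52.6 and 39.5 RPKM, with replicates 2 and 3 below every Jag1+/+ library and replicate 1 above. Between genotypes the log2 fold change was -0.17 ± 0.19 (95% interval -0.59 to 0.26, edgeR adjusted p = 0.677), and it turned to 0.056 in the deposited RPKM.

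Gbe1 (chr16:70313949-70569720), the branching enzyme, had the lowest level of the 10 and the narrowest interval. It measured 10.7, 9.66 and 11.0 RPKM in Jag1+/+ and 9.56, 11.8 and 11.0 RPKM in Jag1Ndr/Ndr livers, which overlapped closely. The log2 fold change of 0.05 ± 0.15 had a 95% interval of -0.28 to 0.38 (edgeR adjusted p = 0.893), and its sign turned without Jag1+/+ replicate 2 or Jag1Ndr/Ndr replicate 2 and with sex in the model.

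Pygl (chr12:70190815-70227683), the liver glycogen phosphorylase that frees glucose units from glycogen, came nearest to the threshold. It measured 146, 144 and 176 RPKM in Jag1+/+ and 93.2, 97.7 and 132 RPKM in Jag1Ndr/Ndr replicates 1, 2 and 3. All 3 Jag1Ndr/Ndr libraries lay below all 3 Jag1+/+ libraries, as did 14.3% of all genes tested. None of the 10 had its Jag1Ndr/Ndr libraries all above (14.8% of all genes tested), and the genotypes were apart in either direction for 29.0%. The log2 fold change was -0.53 ± 0.20 (95% interval -0.99 to -0.07), with an unadjusted p of 0.028 and an edgeR adjusted p of 0.158. It was -0.30 in the deposited RPKM and between -0.70 and -0.44 with any of the 6 libraries left out.

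Slc2a2 (chr3:28697903-28728361) encodes GLUT2, through which hepatocytes take up and release glucose. Its level was 81.0, 94.2 and 92.5 RPKM in Jag1+/+ and 82.4, 100.1 and 105 RPKM in Jag1Ndr/Ndr livers. Replicate 1 was the lowest of each genotype, and the genotypes overlapped. Its change on the log2 scale was 0.11 ± 0.17 (95% interval -0.29 to 0.50, edgeR adjusted p = 0.782), and 0.34 in the deposited RPKM.

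Gcgr (chr11:120529185-120538989), the receptor through which glucagon raises cAMP in hepatocytes, measured 47.3, 60.4 and 59.6 RPKM in Jag1+/+ livers. It stood at 73.9, 49.4 and 47.7 RPKM in Jag1Ndr/Ndr livers, with replicate 1 above every other library and replicates 2 and 3 at the low end of the Jag1+/+ range. Its change on the log2 scale was 0.03 ± 0.21 (95% interval -0.45 to 0.51, edgeR adjusted p = 0.959), and -0.21 without Jag1Ndr/Ndr replicate 1.

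**Figure D2:**
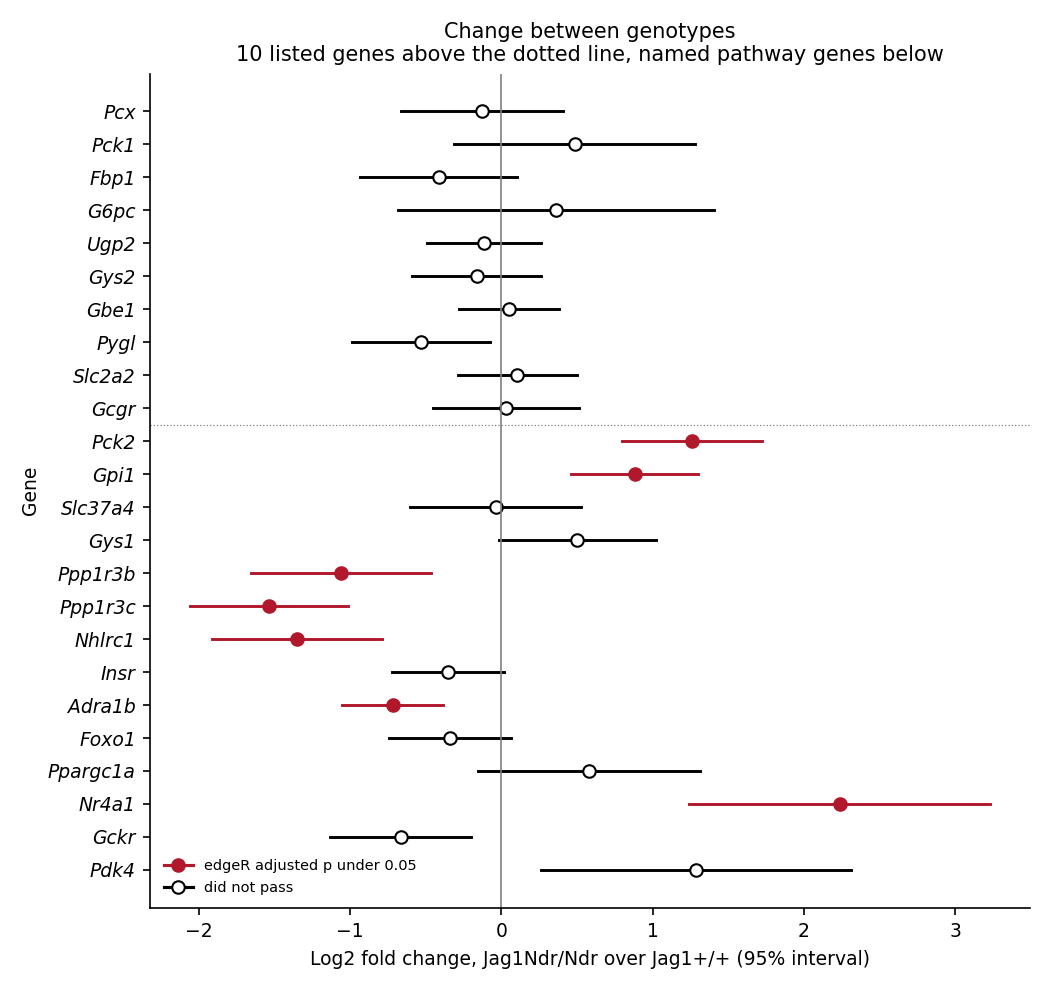
Log2 fold change between genotypes with its 95% interval for the 10 genes (above the dotted line) and for the named genes of the wider pathway (below it). Filled red points passed edgeR's test at an adjusted p under 0.05 and open points did not; the 10 genes are all open, and 7 pathway genes are filled.

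Per length, Fbp1 transcripts were the most abundant in Jag1+/+ livers (854 ± 141 RPKM, mean ± SD, n = 3), above Pck1 (530 ± 38.4 RPKM), and the libraries of the pair did not overlap. Pcx (177 ± 33.4 RPKM), Pygl (156 ± 17.6 RPKM) and G6pc (150 ± 49.2 RPKM) followed and overlapped with their neighbours. Slc2a2 (89.2 ± 7.20 RPKM) and Ugp2 (87.9 ± 11.2 RPKM) overlapped, as did Gys2 (57.1 ± 2.11 RPKM) and Gcgr (55.8 ± 7.33 RPKM), and Gbe1 (10.5 ± 0.712 RPKM) lay apart at the bottom. In Jag1Ndr/Ndr livers the mean of Pck1 (742 ± 359 RPKM) stood above that of Fbp1 (640 ± 136 RPKM), but their libraries overlapped. Below them G6pc, Pcx, Pygl, Slc2a2 and Ugp2 formed a chain in which each overlapped the next. The length behind these values is that implied by the deposited RPKM; for Slc2a2 it was 2502 bases, against 5569 for its longest annotated transcript, so its place in the order depends on the transcript counted.

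The Jag1Ndr/Ndr livers differed more among themselves than the Jag1+/+ livers did. The highest Jag1Ndr/Ndr library exceeded the lowest 2.90-fold for Pck1 and 3.80-fold for G6pc, against 1.14-fold and 1.99-fold in Jag1+/+. For the other 8 genes the ratio in Jag1Ndr/Ndr was 1.06 (Ugp2) to 1.55 (Gcgr). It was larger in Jag1Ndr/Ndr than in Jag1+/+ for 9 of the 10 genes, Ugp2 being the exception, and for 76.1% of all genes with reads in every library. The median over those genes was 1.53 in Jag1Ndr/Ndr and 1.25 in Jag1+/+, and for Jag1Ndr/Ndr Fbp1, Pcx, Gys2 and Gcgr lay within 1.53 to 1.55, Pck1 and G6pc above, and Ugp2 (1.06), Gbe1 (1.23), Slc2a2 (1.28) and Pygl (1.42) below. Replicate 3 was the highest and replicate 2 the lowest Jag1Ndr/Ndr library for Pck1, G6pc and Fbp1, 3 of the 10 genes, and for 10.5% of all genes tested.

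**Figure D3:**
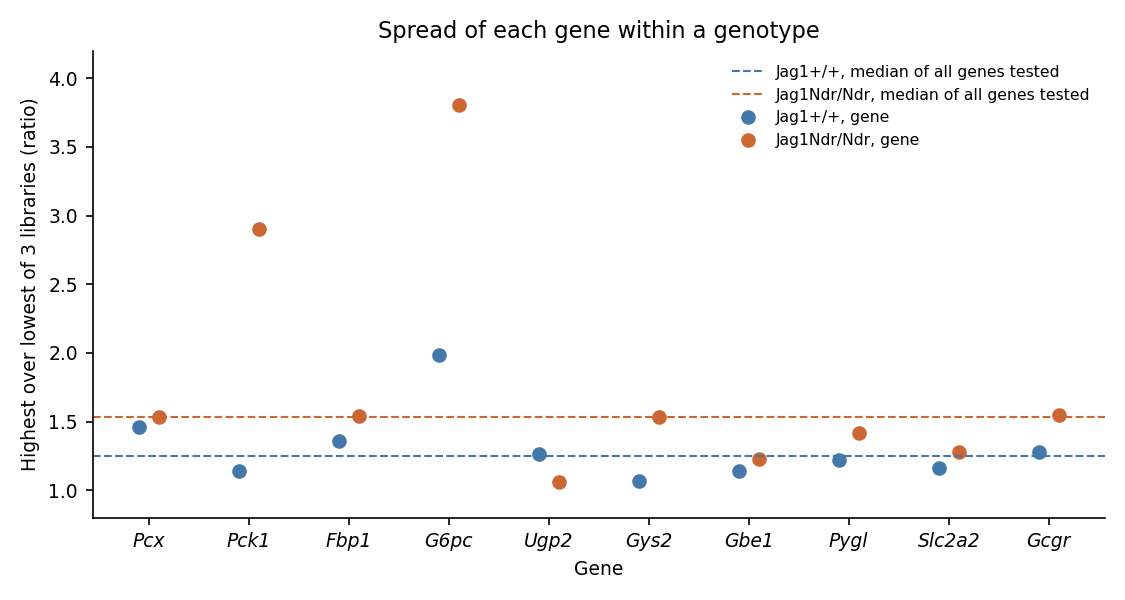
Ratio of the highest to the lowest of the 3 libraries of each genotype for the 10 genes (points, linear axis), with the median over all genes tested that had reads in every library (dashed lines at 1.25 for Jag1+/+ and 1.53 for Jag1Ndr/Ndr). Pck1 and G6pc in Jag1Ndr/Ndr stand above the rest, at 2.90 and 3.80.

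Tat, Sds, Gpt, Got1 and Got2, enzymes that feed amino acids into gluconeogenesis, are named after their values were seen. In the first 4 Jag1Ndr/Ndr replicate 2 was the lowest of the 6 libraries, as it was for 18.9% of all genes tested, and in Got2 it was not. Tat, the tyrosine aminotransferase, measured 138, 125 and 150 RPKM in Jag1+/+ and 247, 60.3 and 494 RPKM in Jag1Ndr/Ndr replicates 1, 2 and 3 (edgeR adjusted p = 0.399, and 0.0240 without Jag1Ndr/Ndr replicate 2). Sds, which turns serine into pyruvate, measured 41.9, 46.5 and 107.7 RPKM and 26.0, 0.463 and 93.5 RPKM in the same order (edgeR adjusted p = 0.784). Exons of Sds overlap Gm15690 and Plbd2 on the other strand, and those of Got2 overlap Gm45760 on the other strand. The alanine aminotransferase Gpt measured 25.1, 19.8 and 85.7 RPKM in Jag1+/+ and 52.6, 3.41 and 50.1 RPKM in Jag1Ndr/Ndr livers (edgeR adjusted p = 0.884). The cytosolic aspartate aminotransferase Got1 measured 83.5, 77.1 and 160 RPKM and 103, 25.8 and 179 RPKM (edgeR adjusted p = 0.971), while its mitochondrial counterpart Got2 measured 115, 111 and 129 RPKM and 98.1, 78.73 and 78.65 RPKM, with replicate 3 lowest. The hepatocyte markers above also summed lowest in replicate 2, to 199080, 107450 and 126110 RPKM in Jag1Ndr/Ndr replicates 1, 2 and 3. Taken singly, Alb, Ttr, Tf and Ahsg were lowest of the Jag1Ndr/Ndr libraries in replicate 2, and Apoa1, Apob and Fgb in replicate 3. The summed level of 6 periportal markers (Sds, Hal, Gls2, Cyp2f2, Ass1 and Cps1) was 605 to 1059 RPKM in Jag1+/+ and 634, 188 and 977 RPKM in Jag1Ndr/Ndr replicates 1, 2 and 3. Most of it was Cps1, at 404, 146 and 591 RPKM in those Jag1Ndr/Ndr replicates. Taken singly, all 6 were lowest of the Jag1Ndr/Ndr libraries in replicate 2. None of the 5 tested markers passed by edgeR (0 at an unadjusted p under 0.05), and Ass1, covered only over a short unique stretch, was not tested. Pericentral markers (Glul, Oat, Cyp2e1, Cyp1a2, Lgr5 and Axin2) summed to 2380 to 2653 RPKM in Jag1+/+ and to 841, 786 and 583 RPKM in Jag1Ndr/Ndr. Most of that sum was Cyp2e1, at 735, 676 and 490 RPKM in Jag1Ndr/Ndr replicates 1, 2 and 3. Among the Jag1Ndr/Ndr libraries, replicate 2 was the highest for Glul, Lgr5 and Axin2 and the lowest for Oat and Cyp1a2. Between genotypes Glul, Cyp2e1 and Cyp1a2, 3 of 6, fell. The calls of Cyp2e1 and Cyp1a2 held in all 17 alternatives, and that of Glul was lost in 7 (adjusted p up to 0.177).

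Some markers of blood cells differed with genotype, and those of neutrophils were highest in Jag1Ndr/Ndr replicate 2. Neutrophil markers (S100a8, S100a9, Ngp, Elane and Mpo) summed to 732 to 941 RPKM in Jag1+/+ and to 1535, 2964 and 1959 RPKM in Jag1Ndr/Ndr replicates 1, 2 and 3, and all but Ngp, 4 of 5, rose. Of the 17 alternatives, 2 lost the calls of S100a8 and S100a9 (adjusted p up to 0.0766), 4 that of Elane (up to 0.102) and 8 that of Mpo (up to 0.150). A list of 4 erythroid markers, with Alas2, Slc4a1 and Hba-a1 among them, summed to 50.4 to 75.9 RPKM in Jag1+/+ and 65.4 to 162 RPKM in Jag1Ndr/Ndr livers. Of these Slc4a1 rose (edgeR adjusted p = 0.0393, lost in 7 alternatives), Alas2 did not pass (edgeR adjusted p = 0.432), and Hba-a1 was listed at 0. Macrophage markers (Clec4f, Cd5l, Adgre1 and Cd68) summed to 178 to 289 RPKM in Jag1+/+ and 513, 328 and 351 RPKM in Jag1Ndr/Ndr livers, and Cd68 alone, 1 of 4, rose (edgeR adjusted p = 0.0351, lost in 9 alternatives). Markers of B cell precursors (Cd79a, Cd79b and Vpreb1) summed to 25.3 to 36.3 RPKM in Jag1+/+ and 8.82, 22.7 and 14.7 RPKM in Jag1Ndr/Ndr livers, and Cd79b alone, 1 of 3, fell (edgeR adjusted p = 0.0452, lost in 10 alternatives). Of 4 stellate cell and fibroblast markers Reln fell (edgeR adjusted p = 0.0361, lost in 10 alternatives) and 0 rose. All 4 had an unadjusted edgeR p under 0.05, Des and Dcn higher and Lrat and Reln lower, beside 22.5% of all genes tested. Among 4 endothelial markers 0 passed by edgeR, with 1 at an unadjusted p under 0.05. Cholangiocyte markers summed to 40.6 to 71.3 RPKM in Jag1+/+ and 19.2, 20.1 and 69.9 RPKM in Jag1Ndr/Ndr livers, with 0 of 5 past the threshold by edgeR and 0 at an unadjusted p under 0.05. The part of these cells in the levels of the 10 genes was not tested. Markers of muscle and of kidney and adrenal gland were near 0, each list summing to under 1 RPKM in every library, and those of pancreatic acini summed to 3.83 to 4.89 RPKM in Jag1+/+ and 2.91 to 7.24 RPKM in Jag1Ndr/Ndr livers.

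The wider pathway was read from 4 lists of 65 genes, 64 of them tested. Of these 3 rose and 4 fell, that is 10.9%, beside 7.63% of all genes tested, and the median log2 fold change was 0.0075. Some tested genes that did not pass were thinly covered. Gapdh held 5 and 17 reads in Jag1+/+ replicates 1 and 2, and Eno1 was counted over 124 bases, against 2027 for its longest annotated transcript. In the glycogen list Ppp1r3b and Ppp1r3c, which bring protein phosphatase 1 to glycogen, fell, as did Nhlrc1, a partner of laforin. In the gluconeogenic list, the mitochondrial carboxykinase Pck2 and the isomerase Gpi1 rose. Among hormone receptors and transcription factors, Nr4a1 rose and Adra1b fell. The list of opposing hepatic glycolytic steps had 0 of 5 genes past the threshold by edgeR. At an unadjusted edgeR p under 0.05 stood 2, Gckr and Pdk4, beside 22.5% of all genes tested. Both were called by DESeq2 (adjusted p = 0.0269 and 0.0240).

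Of 21 tested genes of glycogen turnover, 3 fell and 0 rose by edgeR, beside 2.90% and 4.73% of all genes tested. In either direction 7 of the 21 had an unadjusted edgeR p under 0.05, beside 22.5% of all genes tested. Ppp1r3c, or PTG, which holds protein phosphatase 1 on glycogen so that it activates glycogen synthase, measured 35.9, 42.1 and 31.5 RPKM in Jag1+/+. In Jag1Ndr/Ndr replicates 1, 2 and 3 it measured 9.93, 16.8 and 10.9 RPKM, all below every Jag1+/+ library. It fell 2.90-fold (log2 fold change -1.54 ± 0.23, edgeR adjusted p = 0.00836). The call held with each library left out (edgeR adjusted p = 0.00236 to 0.0401) and was lost in the deposited RPKM (limma adjusted p = 0.0733 and 0.0843 with pseudocounts of 0.1 and 1). In those RPKM the header factors had been multiplied in, where edgeR divides by such factors, and the sources do not say whether this was meant. With the factors dividing instead, the limma adjusted p was 0.00793 for Ppp1r3c and 0.0463, 0.0122, 0.0301, 0.0230 and 0.0385 for Ppp1r3b, Nhlrc1, Pck2, Nr4a1 and Adra1b, so that 6 of the 7 calls held, and 0.0658 for Gpi1.

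Ppp1r3b, the hepatic targeting subunit GL, measured 17.7, 24.2 and 30.0 RPKM in Jag1+/+ and 8.04, 11.96 and 14.3 RPKM in Jag1Ndr/Ndr livers. It fell 2.09-fold (log2 fold change -1.06 ± 0.26, edgeR adjusted p = 0.0454). This call was close to the threshold: the edgeR adjusted p was 0.0617, 0.129 and 0.157 without Jag1+/+ replicates 1, 2 and 3 and 0.0648 and 0.0743 without Jag1Ndr/Ndr replicates 1 and 2. Adding sex to the model gave 0.123, library totals in place of TMM 0.140 and the deposited RPKM (limma, pseudocount 1) 0.423.

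The related subunits Ppp1r3d and Ppp1r3g, named after their values were seen, lay the other way at low levels and did not pass. Ppp1r3g measured 0.541, 0.231 and 0.103 RPKM in Jag1+/+ and 2.76, 0.580 and 1.49 RPKM in Jag1Ndr/Ndr livers. The change of Ppp1r3g was 2.52 ± 0.72 on the log2 scale (edgeR adjusted p = 0.0715, and 0.00277 by DESeq2). For Ppp1r3d the log2 change was 0.83 ± 0.32 (edgeR adjusted p = 0.162). Nhlrc1, or malin, a ubiquitin ligase that works with laforin and whose loss leads to abnormal glycogen in Lafora disease, measured 1.74, 2.11 and 1.94 RPKM in Jag1+/+ and 0.833, 0.653 and 0.811 RPKM in Jag1Ndr/Ndr livers. It fell 2.56-fold (log2 fold change -1.35 ± 0.25, edgeR adjusted p = 0.0161), with adjusted p-values of 0.0562, 0.0896 and 0.0776 without Jag1+/+ replicates 1, 2 and 3 and of 0.228 for the deposited RPKM (limma, pseudocount 1). The widespread glycogen synthase Gys1 (log2 fold change 0.50 ± 0.23, edgeR adjusted p = 0.240) did not pass. Exons of Gys1 overlap Ruvbl2 on the other strand.

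**Figure D4:**
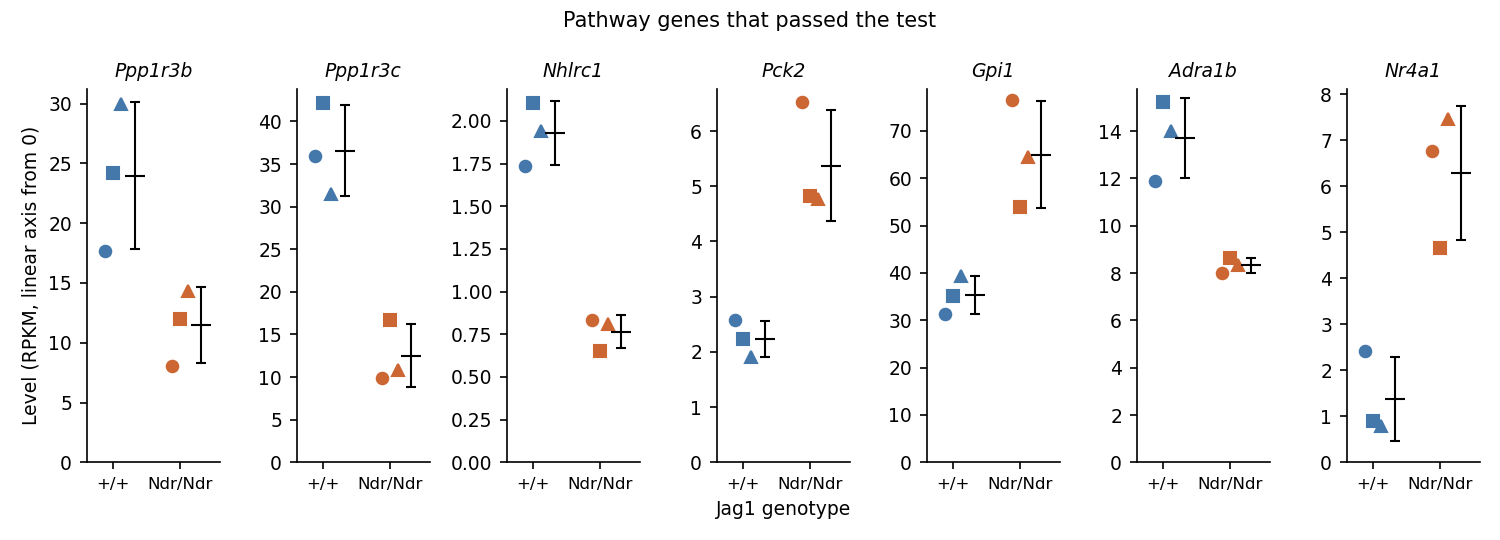
Level (RPKM, linear axis from 0) in each library of the 7 pathway genes that passed the test, in Jag1+/+ (blue) and Jag1Ndr/Ndr (orange); circles, squares and triangles are replicates 1, 2 and 3, and the black bars give mean ± SD of 3 libraries. The genotypes do not overlap for any of the 7, which were picked by the test on these same libraries, nor for 29.0% of all genes tested. Ppp1r3b, Ppp1r3c, Nhlrc1 and Adra1b are lower and Pck2, Gpi1 and Nr4a1 higher in Jag1Ndr/Ndr.

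Of 20 tested genes of the gluconeogenic route, 2 rose and 0 fell by edgeR, beside 4.73% and 2.90% of all genes tested. In either direction 5 of the 20 had an unadjusted edgeR p under 0.05, beside 22.5% of all genes tested. Pck2, the mitochondrial counterpart of Pck1, measured 2.57, 2.23 and 1.91 RPKM in Jag1+/+ and 6.53, 4.82 and 4.77 RPKM in Jag1Ndr/Ndr livers, a level far below that of Pck1 in each library. It rose 2.40-fold (log2 fold change 1.26 ± 0.20, edgeR adjusted p = 0.0107), with adjusted p-values of 0.0582 and 0.0611 without Jag1+/+ replicates 2 and 3 and 0.0813 for the deposited RPKM (limma, pseudocount 1). Its exons overlap Gm10876 on the other strand. Gpi1, which interconverts glucose-6-phosphate and fructose-6-phosphate in both directions of the pathway, measured 31.3, 35.1 and 39.4 RPKM in Jag1+/+ and 76.6, 53.9 and 64.5 RPKM in Jag1Ndr/Ndr livers. It rose 1.84-fold (log2 fold change 0.88 ± 0.18, edgeR adjusted p = 0.0270), and the adjusted p was 0.118, 0.132 and 0.0907 without Jag1+/+ replicates 1, 2 and 3 and 0.0589 without Jag1Ndr/Ndr replicate 3. Exons of Gpi1 overlap Gm26762 on the other strand. Slc37a4, which carries glucose-6-phosphate to G6pc in the endoplasmic reticulum, differed by -0.04 ± 0.25 on the log2 scale (edgeR adjusted p = 0.954).

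Of 18 tested genes of hormonal and transcriptional control, 1 rose and 1 fell, beside 4.73% and 2.90% of all genes tested. Nr4a1, a nuclear receptor of the immediate early genes that cAMP induces in liver, measured 2.43, 0.888 and 0.793 RPKM in Jag1+/+ and 6.76, 4.66 and 7.45 RPKM in Jag1Ndr/Ndr livers. It rose 4.71-fold (log2 fold change 2.24 ± 0.43, edgeR adjusted p = 0.0203), with adjusted p-values of 0.0871 and 0.0738 without Jag1+/+ replicates 2 and 3 and 0.0516 without Jag1Ndr/Ndr replicate 3. Without Jag1+/+ replicate 1 its log2 fold change was 2.89. Adra1b, the adrenergic receptor through which catecholamines trigger glycogen breakdown in mouse liver, measured 11.9, 15.2 and 14.0 RPKM in Jag1+/+ and 7.995, 8.64 and 8.33 RPKM in Jag1Ndr/Ndr livers. It fell 1.65-fold (log2 fold change -0.72 ± 0.15, edgeR adjusted p = 0.0243). The adjusted p was 0.0542, 0.118 and 0.110 without Jag1+/+ replicates 1, 2 and 3, 0.0561 without Jag1Ndr/Ndr replicate 3, 0.0707 with sex in the model and 0.741 for the deposited RPKM (limma, pseudocount 1).

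Ppargc1a and Foxo1, known as drivers of Pck1 and G6pc, did not pass. Ppargc1a, a coactivator induced by fasting, measured 1.62, 2.45 and 2.34 RPKM in Jag1+/+ and 3.28, 1.85 and 4.53 RPKM in Jag1Ndr/Ndr replicates 1, 2 and 3 (edgeR adjusted p = 0.337), the same order over the Jag1Ndr/Ndr libraries as Pck1 and G6pc. Foxo1, which insulin excludes from the nucleus, differed by -0.34 ± 0.18 on the log2 scale (edgeR adjusted p = 0.304). Exons of Foxo1 overlap Gm20402 on the other strand. The insulin receptor Insr differed by -0.35 ± 0.16 (edgeR adjusted p = 0.244). Gckr, a regulator of glucose use in hepatocytes, measured 64.6, 90.4 and 97.6 RPKM in Jag1+/+ and 60.002, 45.0 and 54.3 RPKM in Jag1Ndr/Ndr livers (log2 fold change -0.67 ± 0.20, edgeR adjusted p = 0.0897). Pdk4, which limits the entry of pyruvate into the citric acid cycle, stood at 6.82, 6.56 and 5.48 RPKM in Jag1+/+ and 8.59, 28.5 and 8.498 RPKM in Jag1Ndr/Ndr livers (edgeR adjusted p = 0.127), its highest value lying in replicate 2. For Pdk4 the log2 fold change moved from 1.29 to 0.45 without Jag1Ndr/Ndr replicate 2.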

How the data were processed

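The deposited table holds whole read counts per RefSeq gene entry, which the authors left unnormalized, 1 column per library, per the file headers. It also holds RPKM into which the authors multiplied a TMM factor for each library, per the file headers and the values. STAR and the mouse genome mm10 are named per the submitters' processing notes; the counter was not given in the sources used here, and the kit named in the labels does not mark strand. Exons of some markers, Mpo and Reln among them, also overlap other genes. Libraries were grouped by title. Leaving out 93 entries of spike-ins and eGFP (5 reads together), 13819 of 24489 entries passed edgeR's filterByExpr. After TMM scaling, genotypes were compared by the quasi-likelihood test of edgeR 4.0.16 in R 4.3.3, two-sided, adjusted by Benjamini-Hochberg over all genes tested, at 0.05. The other tools were DESeq2 1.42.0 and limma 3.58.1. The SE was taken as the size of the log2 fold change divided by the square root of F.

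RPKM in the text were computed from the counts with TMM scaling, over the length that the deposited RPKM imply; 97.7% of values matched that length within 5%. In the shallowest library, 0 reads leave room for 0.231 CPM (3 reads, counting error only). The test was checked on simulated counts with 200 planted changes, and 10 of 13619 unchanged genes were called. List genes were matched through RefSeq accessions (GRCm38.p6). The 10 genes and the lists were chosen with earlier results of these data known. Named are the 10, every pathway gene past the threshold, the 2 smallest adjusted p of a list with none, and fixed isozymes and regulators. Tat, Sds, Gpt, Got1, Got2, Ppp1r3d, Ppp1r3g, Gapdh, Eno1 and the markers that passed were added after their values were seen. Most other genes of the lists are only counted, and some of these are not reported here. The alternatives tried were limma with pseudocounts of 1 and 0.1 on the RPKM as deposited or with the header factors dividing, no filter, a mean of at least 100 reads, DESeq2 and its size factors, library totals, quantile normalization, sex as a covariate, a replicate block and each library left out.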

Additional observations from a re-analysis of the deposited data

How the results depend on the processing

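The number of the 10 genes called was 0 in both directions under all 17 alternatives. Over 170 refits of single genes, 153 kept the sign and 17 reversed it, and 0 crossed the threshold. The number of pathway genes that rose, 3, was 7 by DESeq2, and that of those that fell, 4, was 7 by DESeq2, 2 with sex as a covariate, with library totals or with a mean of at least 100 reads, and 0 in the deposited RPKM with either pseudocount but 4 with the header factors dividing, where 2 rose. The deposited values were multiplied by those factors, by which edgeR would divide. With a library left out it ranged from 0 (without Jag1+/+ replicate 2) to 7 (without Jag1Ndr/Ndr replicate 2) for rises and from 1 (without any Jag1+/+ replicate) to 4 for falls. Over all genes the median log2 fold change shifted up by 0.21 (pseudocount 1) and 0.22 (pseudocount 0.1) in the deposited RPKM and by 0.13 with library totals, and higher genes made up 79.3%, 78.5% and 74.3% of calls there, against 62.0% of the 1054 calls with TMM. The total was 282 to 1211 with a library left out, 489 and 544 in the deposited RPKM with pseudocounts of 1 and 0.1, 596 with sex as a covariate and 1890 by DESeq2. Where the cause of a change is not given by fewer libraries or another scaling, it was not tested.

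Signs turned as follows. In the deposited RPKM, Pcx stood at 0.11, Gys2 at 0.056, Ugp2 at 0.14 (0.15 with a pseudocount of 0.1) and Slc37a4 at 0.014. With the header factors dividing, Gcgr was -0.0058. With library totals Slc37a4 was 0.033 and Got1 0.018, and under quantile normalization Pcx was 0.017 and Ugp2 0.038. With sex as a covariate Pcx was 0.017, Gbe1 -0.0080, Slc37a4 0.080, Gpt 0.036 and Got1 0.047. Without Jag1+/+ replicates 1, 2 and 3 in turn, Gcgr was -0.080, Gbe1 -0.015, and Slc37a4 0.048, Gpt 0.65 and Got1 0.35. Without Jag1Ndr/Ndr replicate 1 Gcgr was -0.21. Without replicate 2 Gbe1 was -0.015, Slc37a4 0.20, Gpt 0.24 and Got1 0.40. Without replicate 3 G6pc was -0.24 and Pcx 0.040. At the other end of the range with a library left out stood G6pc at 0.72, Pcx at -0.28, Gbe1 at 0.12, Gcgr at 0.15, Slc37a4 at -0.28, Gpt at -0.73 and Got1 at -0.72.

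The replicate numbers are not stated to pair the libraries. Deviations of same-numbered libraries from their genotype means correlated at 0.086, 0.17 and 0.19 over genes, and each library correlated best with its own number. A replicate block gave 4 pathway genes that rose, 6 that fell and 1430 calls in all, and still 0 of the 10 genes.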
